A study of Mus musculus with 13 samples.

Results

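The transcripts of 10 receptor tyrosine kinases outside the ErbB family were followed in mammary glands and mammary tumors of MMTV-HER2/neu mice. The receptors were Met, Axl, Igf1r, Insr, Fgfr1, Fgfr2, Pdgfra, Pdgfrb, Epha2 and Mst1r. They were taken by symbol as known candidates to bypass the loss of ErbB2 signaling when the chaperone HSP90 is inhibited. The choice was made with earlier results of these data known, although the rule itself uses no measured value. All 10 were found among the 24421 genes of the count table, and all 10 passed the filter on low counts.

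The data were 13 RNA-seq libraries, each from female mice of the strain FVB/N-TgN (MMTV-HER2/neu), line 202Mul/J, whose genotype label reads "Wild type". Every animal carried a rat HER2/neu transgene that a viral promoter drives in mammary epithelium, so all groups, the glands included, share it. Mammary glands (n = 2) and primary untreated tumors (n = 3) came from mice without drug, and primary stavudine tumors (n = 3) from mice given 1 mg/mL of the reverse transcriptase inhibitor stavudine to drink. Recurrent 17-DMAG tumors (n = 3) are tumors that came back in mice injected intraperitoneally with the HSP90 inhibitor 17-DMAG at 20 mg/kg. By the study's methods the injections went on while the tumors regrew, up to the end point. The last group, recurrent 17-DMAG plus stavudine tumors (n = 2), came back in mice that received both drugs. For single animals the labels give neither the age nor whether stavudine began in early adulthood or once a primary tumor was present. Nothing in the labels states that replicates are separate mice, so p-values measure the spread between these samples.

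Receptor tyrosine kinases bind a ligand outside the cell, pair, and phosphorylate each other and adaptor proteins inside it. Most of them feed the same RAS to MAPK and PI3K to AKT cascades that ErbB2 uses, which is why a tumor held in check at ErbB2 can in principle signal through another receptor. Met is the receptor of hepatocyte growth factor, and Mst1r (RON) is its relative for macrophage stimulating protein. Axl binds Gas6 and is used by macrophages and other cells to take up dying cells. Igf1r and Insr are the receptors of insulin-like growth factors and insulin, and Fgfr1 and Fgfr2 those of fibroblast growth factors. Pdgfra and Pdgfrb receive platelet-derived growth factors, mainly on fibroblasts and pericytes, and Epha2 is a receptor of ephrin-A ligands on epithelium. Several of these proteins are themselves folded with the help of HSP90, but only RNA was measured here.

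Library totals ran from 39921388 to 56887708 counts. Values per gene are CPM, counts scaled to the size of the library after TMM normalization. A floor of 3 counts corresponds to 0.0587 to 0.107 CPM here. The least abundant receptor, Mst1r, had 20 to 206 counts per library. Tissue composition was uneven. Recurrent 17-DMAG replicate 1 had the highest fibroblast score (8.35, where the other tumors had 3.36 to 6.83) and the highest macrophage score (5.89, where the others had 3.95 to 5.00), a score being the mean log2 CPM of a list of marker genes. This tumor also had the highest luminal epithelium score of the tumors (7.73, where the others had 6.42 to 7.19). Its pericyte (6.1), basal and myoepithelial (3.93) and endothelium (5.27) scores were the highest of the tumors as well. No marker list had a gene with under 3 counts in every library. Milk protein genes summed to 765000 CPM in mammary gland replicate 2 and 28100 CPM in replicate 1. The TMM factor of mammary gland replicate 2 was 0.4926, where those of the other libraries were 0.9986 to 1.125. This raises every CPM of that gland, so its CPM is not a share of its total counts. In whole tissue, fewer cells of a type and less RNA per cell cannot be told apart. Erbb2, whose count may include rat transgene reads, was lowest at 3697 CPM in recurrent 17-DMAG replicate 1 and stood at 7711 to 19070 CPM in the other tumors.

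Epha2 and Fgfr1 were the most abundant of the 10 receptors per length of transcript in nearly every tumor. The scale used for this order is RPKM, CPM divided by the length of the gene's exons in kilobases. Epha2 was first in 8 of 11 tumors and Fgfr1 in 3, and Fgfr1 was first or second in 11 of 11. Epha2 had a level of 85.9 to 122 RPKM in the 3 primary stavudine tumors, 51.2% to 54.8% of the sum over the 10 receptors. In the 2 glands no receptor held more than 25.2% of that sum. Gland replicate 1 was led by Epha2 (36.9 RPKM) and gland replicate 2 by Insr (19.9 RPKM), with Axl (19.5 RPKM) next.

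**Figure D1:**
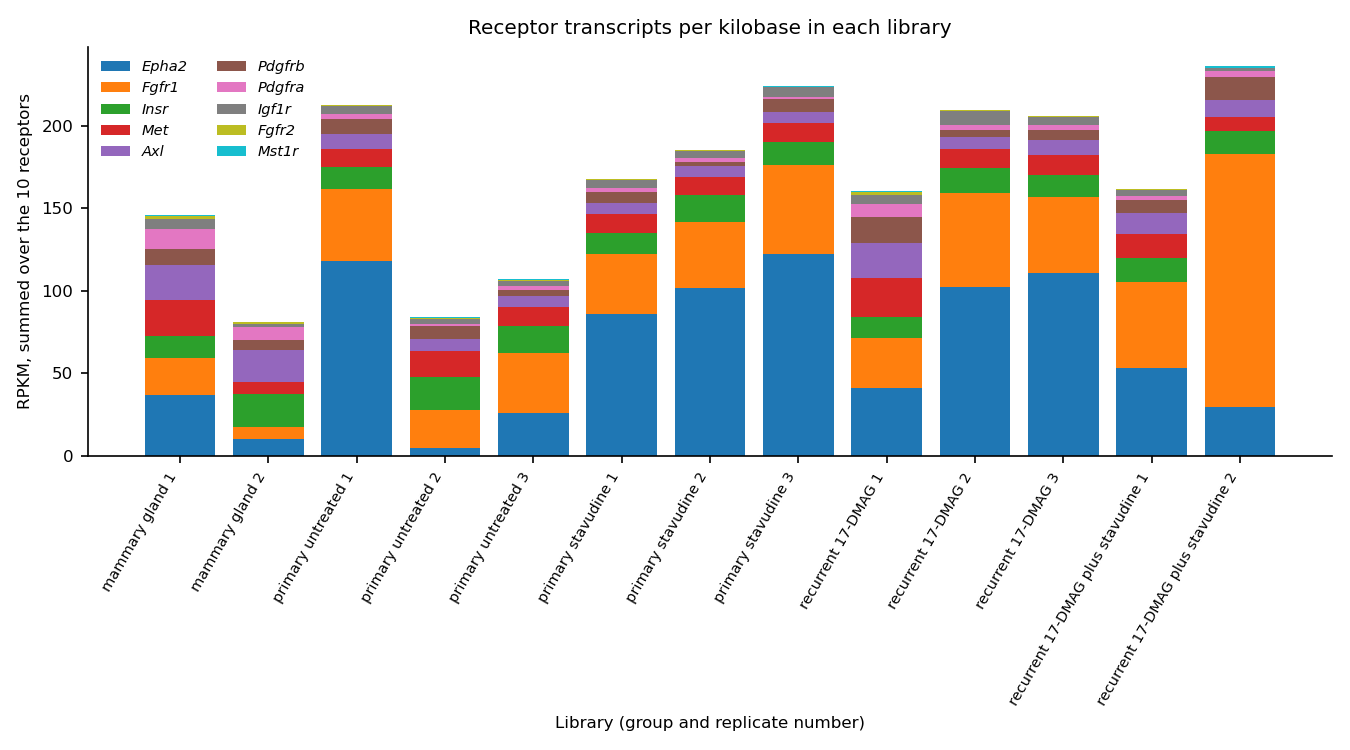
Stacked bars give the RPKM of the 10 receptors (vertical axis) in each of the 13 libraries (horizontal axis, group and replicate number). The smallest bar of Epha2, 4.75 RPKM, is in primary untreated replicate 2, and Fgfr1 reached 153.9 RPKM in recurrent 17-DMAG plus stavudine replicate 2.

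Over all 11 tumors the median levels per length were 85.9 RPKM for Epha2, 43.3 for Fgfr1, 13.9 for Insr and 11.7 for Met. They were 7.58 for Pdgfrb, 7.43 for Axl, 4.85 for Igf1r, 2.34 for Pdgfra, 0.470 for Fgfr2 and 0.226 for Mst1r. Fgfr1 (23.05 to 153.9 RPKM) lay above Insr (12.3 to 19.6 RPKM) without overlap, and the other neighbors in this order overlapped. Met ran from 7.99 to 24.2 RPKM, Axl from 6.40 to 21.2 and Pdgfrb from 2.28 to 15.6. Insr was the most even receptor, at 168 to 269 CPM in tumors. Epha2 was the most uneven, at 22.2 to 572 CPM.

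**Figure D2:**
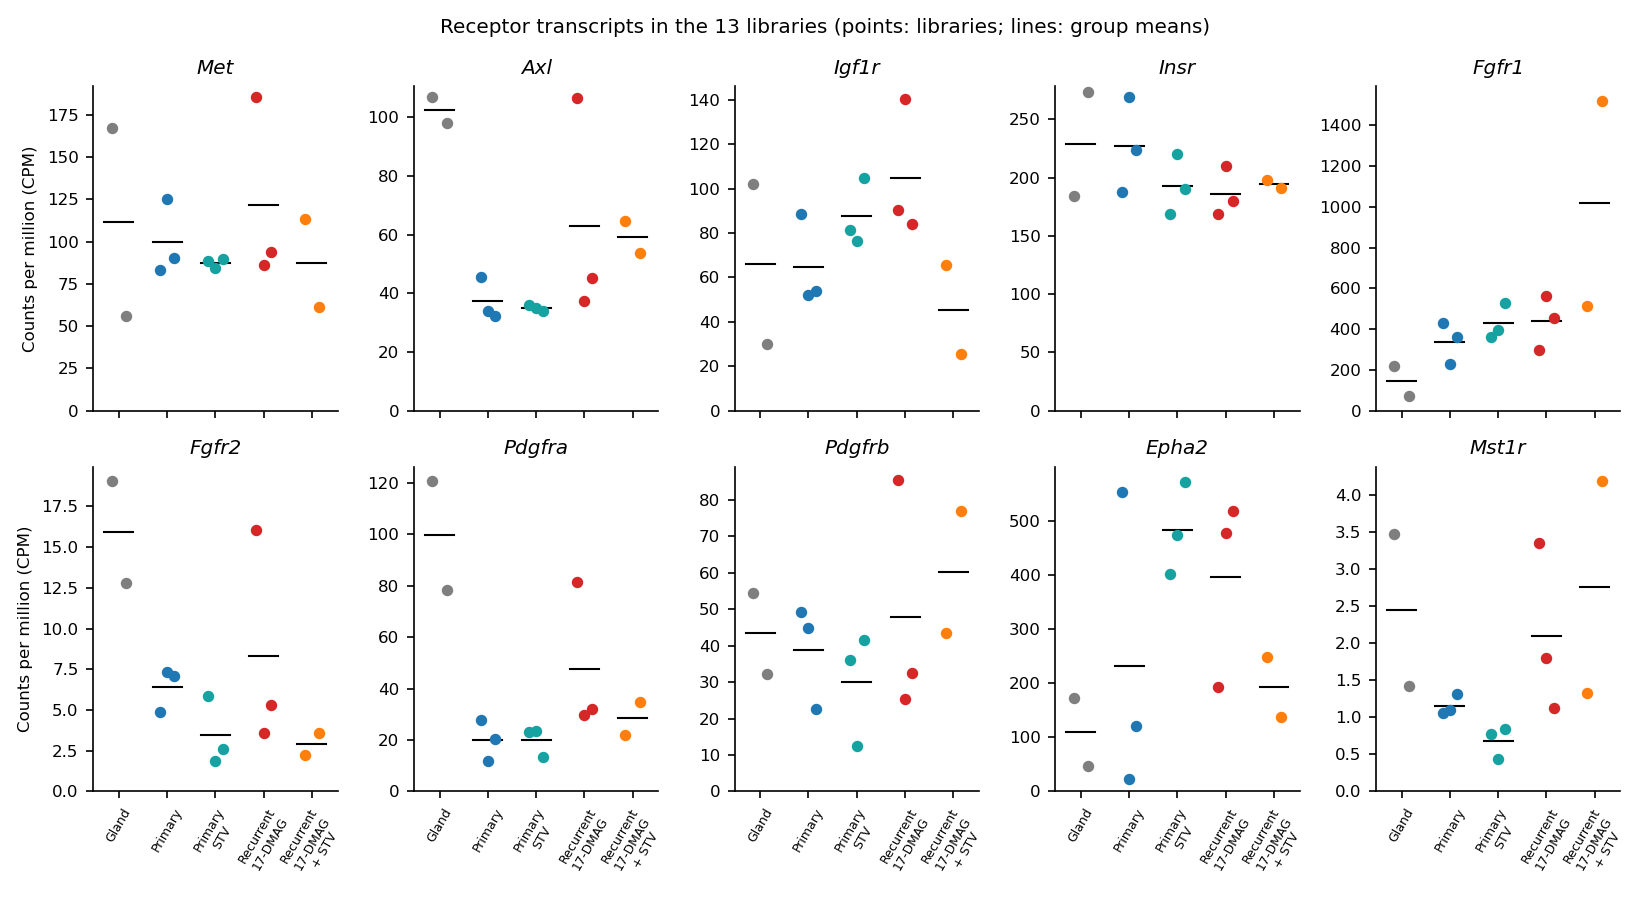
Points are the CPM (vertical axis, linear and from 0) of each receptor in each library, by group (horizontal axis, STV for stavudine), and lines are group means. Axl, Pdgfra and Fgfr2 were higher in both glands than in the 3 primary untreated tumors. For Epha2 the primary untreated tumors were spread widely (552, 22.2 and 120 CPM). For Fgfr1 a single tumor stands far above all others (1520 CPM in recurrent 17-DMAG plus stavudine replicate 2).

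Primary untreated tumors were first set against mammary glands, to ask which receptors differ between the tumors and their tissue of origin. Pdgfra, a receptor typical of fibroblasts, fell. It was at 120.9 and 78.4 CPM in the glands and at 27.8, 11.7 and 20.3 CPM in primary untreated tumors. The groups did not overlap, and the log2 fold change was -2.32 (SE 0.49, adjusted p = 0.0468, edgeR quasi-likelihood test). Axl was at 107.0 and 98.0 CPM in the glands and at 45.6, 34.0 and 32.2 CPM in the tumors, with no overlap. On the log2 scale the difference was -1.46 (SE 0.36), and with an adjusted p of 0.0616 from edgeR it was not called.

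Fgfr1 showed the opposite order, at 219 and 73.5 CPM in glands and 428, 228 and 359 CPM in tumors, without overlap, but its log2 fold change of 1.21 (SE 0.55) had an adjusted p of 0.207. Fgfr1 rested on which gland was used: without mammary gland replicate 1 it was 2.24 and called (adjusted p = 0.0426), and without replicate 2 it was 0.72. Fgfr2 (-1.31, SE 0.63) and Mst1r (-1.08, SE 0.61) were below both glands in all 3 tumors and were not called either, and Mst1r was at -0.26 without mammary gland replicate 1. Epha2 had a log2 fold change of 1.08 with an SE of 1.02, since its tumors spanned 22.2 to 552 CPM. The changes of Met (-0.17), Pdgfrb (-0.16), Igf1r (-0.029) and Insr (-0.012) were smaller than their SE. For Insr the 95% interval was narrow, from -0.47 to 0.45 on the log2 scale.

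By edgeR, 1 of the 10 receptors was called in this comparison, where 2.11% of all 17135 genes tested were. At an unadjusted p under 0.05 there were 2 receptors, where 24.5% of all genes were, and the groups did not overlap for 5 receptors, where 39.2% of all genes did not. These shares are near or below those of all genes except for the single call. DESeq2 called Axl and Pdgfra, and 13.9% of all genes. The call of Pdgfra was lost without any 1 of the 3 tumors (adjusted p between 0.0758 and 0.179) and without mammary gland replicate 2 (0.0769). Marker genes of other cells differed between the same samples. The fibroblast score was 7.74 and 7.22 in glands and 5.04 to 6.19 in primary untreated tumors, and the adipocyte score 6.18 and 5.91 against 0.421 to 2.79. Their part in the result was not tested.

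Among 17 ligands of these receptors, 6 were lower and 2 higher in all 3 tumors than in both glands, where 39.2% of all genes did not overlap. Igf1, the ligand of Igf1r, was at 62.7 and 157 CPM in glands and 20.8, 5.24 and 10.1 CPM in tumors (log2 fold change -3.19, SE 0.88, adjusted p = 0.0748 by edgeR). Hgf, the ligand of Met, was at 9.55 and 3.53 CPM in glands and 1.91, 1.51 and 1.5 CPM in tumors (-1.996, SE 0.70, adjusted p = 0.124). For Fgf10, a ligand of Fgfr2, the difference on the log2 scale was -4.86 (SE 1.58, adjusted p = 0.106). None of the 17 ligands tested was called, 2 had an unadjusted p under 0.05 and were higher (Fgf1 and Efna4), and 3 were lower (Igf1, Hgf and Fgf10). Such a p was found for 24.5% of all genes in either direction. The median log2 fold change of the 17 ligands was -0.48, where that of all genes was -0.019.

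Of 14 genes that restrain receptors, Cblb, a ubiquitin ligase that sends activated receptors to degradation, was called lower. It was at 64.9 and 79.5 CPM in glands and 29.7, 32.3 and 38.5 CPM in tumors (log2 fold change -1.11, SE 0.24, adjusted p = 0.0491). This call was not firm. It was lost without primary untreated replicate 2 or 3 and with the compared groups only, where edgeR called 0 genes in all. The insulin receptor adaptor Grb10 (1.64), the IGF binding proteins Igfbp3 (2.46) and Igfbp5 (1.33), the ErbB feedback inhibitor Errfi1 (1.36) and the protease inhibitor Spint1 (0.51) had positive log2 fold changes at an unadjusted p under 0.05 and were not called. Among 12 related receptors, Fgfr4, Ephb3, Ephb4, Kit and Epha7 were higher and Fgfr3 and Csf1r lower at that p, none called. Of 9 adaptors Gab2 alone passed it, with -0.75. Of all 17135 genes, 24.5% passed that p in this comparison and 2.11% were called.

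Stavudine was compared with no drug in primary tumors next. No receptor had an unadjusted p under 0.05, where 3.76% of all 16870 genes did, and edgeR called 0% of all genes. DESeq2 called 17 genes, none of them a receptor. The receptors with the smallest p were Insr (log2 fold change -0.25, SE 0.16, unadjusted p = 0.149) and Fgfr2 (-0.91, SE 0.60, unadjusted p = 0.1598). Both leaned on single tumors: Insr was -0.37 (unadjusted p = 0.0419) without primary untreated replicate 1 and -0.083 without replicate 2, and Fgfr2 was -1.52 (unadjusted p = 0.0417) without primary stavudine replicate 1. Epha2 also had an unadjusted p under 0.05 without primary untreated replicate 1. Mst1r did not overlap between the groups, at 0.783, 0.435 and 0.844 CPM with stavudine and 1.06, 1.10 and 1.32 CPM without, and was the only such receptor of 10, where 10.8% of all genes did not overlap. For Epha2 the interval of the difference, -0.90 to 3.004 on the log2 scale, was wide, whereas for Insr it ran from -0.60 to 0.11. Among the other pathway genes tested only Grb10 had an unadjusted p under 0.05 (-0.57, unadjusted p = 0.0371).

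Recurrence was then compared with primary growth in each water arm, to ask whether a bypass receptor differs in tumors that regrew under 17-DMAG. Without stavudine, Pdgfra was the receptor with the smallest p. It was at 81.3, 29.8 and 32.2 CPM in recurrent 17-DMAG tumors and 27.8, 11.7 and 20.3 CPM in primary untreated tumors. All 3 recurrent tumors lay above all 3 primary ones. The log2 fold change was 1.25 (SE 0.46, unadjusted p = 0.0225, adjusted p = 0.510), which was not called. Without recurrent 17-DMAG replicate 1, the tumor with the most fibroblast and macrophage marker RNA, it was 0.64 (unadjusted p = 0.131).

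Axl was at 106.6, 37.4 and 45.1 CPM in recurrent 17-DMAG tumors and 45.6, 34.0 and 32.2 CPM in primary untreated tumors, so that the groups overlapped (log2 fold change 0.75, SE 0.35). Igf1r was at 90.2, 140 and 83.9 CPM against 88.3, 52.2 and 53.8 CPM, again with overlap (0.68, SE 0.35). Mst1r (0.84, SE 0.53), Epha2 (0.76, SE 0.87), Fgfr1 (0.36, SE 0.40), Fgfr2 (0.35, SE 0.59), Pdgfrb (0.28, SE 0.56), Met (0.28, SE 0.32) and Insr (-0.30, SE 0.16) all had an unadjusted p over 0.05. Leaving out recurrent 17-DMAG replicate 1 turned Met to -0.14, Fgfr2 to -0.53 and Pdgfrb to -0.42, and left Axl at 0.15 (unadjusted p = 0.405) and Mst1r at 0.35. This tumor had the highest value of the 11 for Met, Axl, Fgfr2, Pdgfra and Pdgfrb.

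In this arm 1 of 10 receptors had an unadjusted p under 0.05, where 9.69% of all genes had, and 1 did not overlap, where 15.1% of all genes did not. The first count depended on single tumors. It was 4 without primary untreated replicate 1 (Igf1r, Insr, Pdgfra and Epha2, the last at 2.46 with an unadjusted p of 0.00842) and 0 without primary untreated replicate 2, primary untreated replicate 3 or recurrent 17-DMAG replicate 1. By edgeR 0% of all genes were called at an adjusted p under 0.05, while DESeq2 called 61, none a receptor. The median log2 fold change of the 10 receptors was 0.52 and that of all genes -0.0052.

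Under stavudine, Mst1r had the smallest p. The 2 recurrent tumors had 1.33 and 4.199 CPM and the 3 primary stavudine tumors 0.783, 0.435 and 0.844 CPM, with no overlap and a log2 fold change of 2.01 (SE 0.58, unadjusted p = 0.00671, adjusted p = 0.337). Mst1r is a low transcript, with 68 and 206 counts in these recurrent tumors and 20 to 40 in the primary ones. Without recurrent 17-DMAG plus stavudine replicate 2 its log2 fold change was 0.94 (unadjusted p = 0.166).

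Fgfr1 was at 515 and 1520 CPM in the recurrent and 361, 398 and 530 CPM in the primary stavudine tumors. Replicate 2 stood 2.69 times above the next tumor of the series, while replicate 1 lay inside the primary range. The log2 fold change was 1.25 (SE 0.44, unadjusted p = 0.0183, adjusted p = 0.439), and 0.26 (unadjusted p = 0.544) without replicate 2 and 1.82 without replicate 1. Igf1r had the opposite sign, at 65.6 and 25.4 CPM against 81.4, 76.4 and 104.9 CPM. The groups did not overlap, and the log2 fold change was -0.94 (SE 0.41, unadjusted p = 0.0447, adjusted p = 0.487), or -0.42 (unadjusted p = 0.309) without replicate 2 and -1.79 without replicate 1.

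Of the other receptors, Axl (64.6 and 53.9 CPM against 36.1, 35.0 and 34.0 CPM, log2 fold change 0.76, SE 0.38) and Pdgfrb (1.01, SE 0.62) were above all primary stavudine tumors and Epha2 (-1.33, SE 1.01) below them, with unadjusted p-values over 0.05. The macrophage score was 5.00 and 4.76 in these recurrent tumors and 3.95 to 4.03 in the primary ones, and the fibroblast score 6.28 and 6.83 against 3.36 to 5.73, and their part in these values was not tested. Pdgfra (0.51, SE 0.50), Fgfr2 (-0.25, SE 0.67), Insr (0.015, SE 0.17) and Met (0.0046, SE 0.36) overlapped. In all, 3 of 10 receptors had an unadjusted p under 0.05, where 10.1% of all genes had, and 5 of 10 did not overlap, where 35.3% of all genes did not. The first count depended on single primary tumors. It was 1 (Mst1r) without primary stavudine replicate 1 or 2, and 2 (Fgfr1 and Mst1r) without replicate 3. By edgeR 0% of all genes were called, and DESeq2 called 331, none a receptor.

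**Figure D3:**
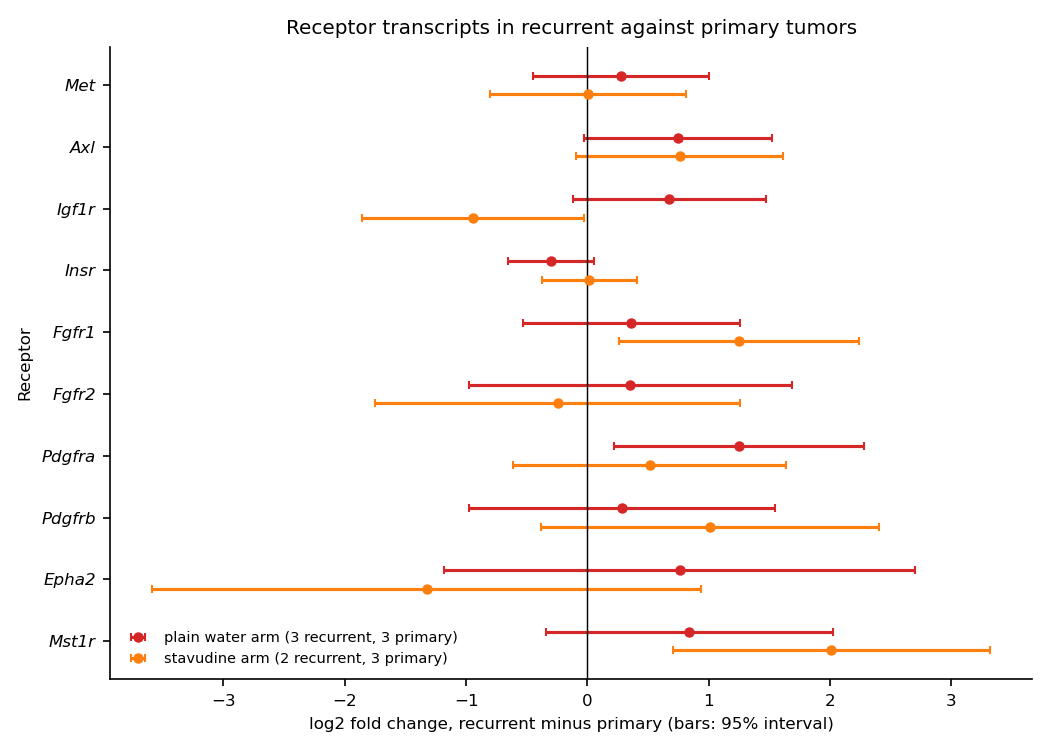
Points are the log2 fold changes of recurrent over primary tumors (horizontal axis) for each receptor (vertical axis) in the plain water arm (3 against 3) and the stavudine arm (2 against 3), with 95% intervals from edgeR. The intervals lie above 0 for Pdgfra without stavudine and for Fgfr1 and Mst1r under it, and below 0 for Igf1r under it, before adjustment over all genes.

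Gas6, the ligand of Axl, had the smallest p of the pathway genes in the stavudine arm. It was at 126 and 466 CPM in the recurrent tumors and 51.2, 29.0 and 43.9 CPM in the primary stavudine tumors, with a log2 fold change of 2.85 (SE 0.60, unadjusted p = 0.000955, adjusted p = 0.288). Without stavudine Gas6 was at 156, 85.0 and 55.6 CPM in recurrent and 67.9, 40.7 and 28.4 CPM in primary tumors, which overlapped. The other ligand of this receptor family, Pros1, had 0.86 (SE 0.33, unadjusted p = 0.0258) under stavudine. In this arm 2 of 17 ligands passed the unadjusted p, both higher, where 10.1% of all genes passed it in either direction. The median over the ligands was 0.61 where that of all genes was 0.015. Of 14 restraining genes, Igfbp2 (4.36), Igfbp4 (2.09), Igfbp5 (1.06) and Lrig1 (0.62) were higher and Errfi1 (-1.08, SE 0.29, unadjusted p = 0.00462) lower at that p, none called. None of the related receptors or adaptors passed it. Without stavudine, the ligand Efna5 (0.98) and the receptor Epha4 (1.43) were higher and Epha7 (-1.18) and Grb10 (-0.56) lower at that p, and no other pathway gene passed it. There 9.69% of all genes passed it.

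Averaged over both arms, which uses all 5 recurrent and 6 primary tumors, 4 of the 10 receptors had an unadjusted p under 0.05 and all 4 were higher in recurrent tumors, where 13.6% of all genes had such a p in either direction. They were Mst1r (log2 fold change 1.43, SE 0.39, unadjusted p = 0.00507, adjusted p = 0.287), Axl (0.75, SE 0.26, unadjusted p = 0.0157, adjusted p = 0.313), Fgfr1 (0.81, SE 0.30, unadjusted p = 0.0230, adjusted p = 0.326) and Pdgfra (0.88, SE 0.34, unadjusted p = 0.0272, adjusted p = 0.333). None was called by edgeR, which called 0% of all genes. DESeq2 called Mst1r alone of the receptors (adjusted p = 0.0352) and 2.50% of all genes. For none of the 10 were all recurrent tumors on one side of all primary ones, where 1.34% of all genes were so split.

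The levels behind these averages overlapped to different extents. Mst1r had a median of 1.81 CPM in recurrent tumors (1.13 to 4.199) and 0.949 in primary tumors (0.435 to 1.32). Axl had a median of 53.9 CPM (37.4 to 106.6) and 34.5 CPM (32.2 to 45.6). Pdgfra had 32.2 CPM (22.2 to 81.3) and 21.8 CPM (11.7 to 27.8), and Fgfr1 515 CPM (300.0 to 1520) and 379 CPM (228 to 530). The log2 fold change of Fgfr1 was 0.32 (unadjusted p = 0.233) without recurrent 17-DMAG plus stavudine replicate 2, and that of Mst1r was 0.90 (unadjusted p = 0.0446). Without recurrent 17-DMAG replicate 1 Axl was at 0.45 (unadjusted p = 0.00541) and Pdgfra at 0.57 (unadjusted p = 0.0655). Pdgfra also did not pass without primary untreated replicate 2 or primary stavudine replicate 3. Fgfr1 did not pass without primary untreated replicate 2, recurrent 17-DMAG replicate 2 or primary stavudine replicate 1. Axl did not pass without recurrent 17-DMAG plus stavudine replicate 1, a fit that leaves 1 sample in that group. The ligands Gas6 (1.97, unadjusted p = 0.000763), Igf1 (1.503), Efna5 (0.71) and Pros1 (0.52) were the 4 of 17 that passed the unadjusted p in this comparison, all higher and none called. Of all genes, 13.6% passed it in either direction.

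Promoter sequence was read for the receptors that passed the unadjusted p in the averaged comparison, to show the DNA at the starts of these transcripts. RefSeq entries (GRCm38.p6) of 250 bases before and 50 bases after a transcript start were at hand for 7 of the 10 receptors, not for Insr, Fgfr1 or Pdgfrb. Capitals mark matches to GGGCGG (the GC box bound by SP1-type factors, CCGCCC on the opposite strand) or to GAANNTTC (the core of a heat shock element). TGANTCA (AP-1), an NF-kB motif and TATAAA were searched on both strands as well, and had no match in these 4 windows. The windows are Axl at chr7:25788684-25788983 (minus strand), Pdgfra at chr5:75152001-75152300 (plus), and the outer and inner starts of Mst1r at chr9:107906639-107906938 and chr9:107914753-107915052 (plus).
Axl: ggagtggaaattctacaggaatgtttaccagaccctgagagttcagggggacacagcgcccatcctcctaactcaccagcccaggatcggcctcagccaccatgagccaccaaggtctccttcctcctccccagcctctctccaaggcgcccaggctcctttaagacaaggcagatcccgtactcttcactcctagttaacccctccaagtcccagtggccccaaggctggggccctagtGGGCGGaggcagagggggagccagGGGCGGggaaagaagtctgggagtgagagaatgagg
Pdgfra: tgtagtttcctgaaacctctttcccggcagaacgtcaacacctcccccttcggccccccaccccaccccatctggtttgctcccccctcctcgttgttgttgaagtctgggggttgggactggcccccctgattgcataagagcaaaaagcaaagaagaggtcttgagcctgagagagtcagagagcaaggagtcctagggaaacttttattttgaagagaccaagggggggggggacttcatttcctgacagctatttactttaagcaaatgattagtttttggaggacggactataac
Mst1r, outer start: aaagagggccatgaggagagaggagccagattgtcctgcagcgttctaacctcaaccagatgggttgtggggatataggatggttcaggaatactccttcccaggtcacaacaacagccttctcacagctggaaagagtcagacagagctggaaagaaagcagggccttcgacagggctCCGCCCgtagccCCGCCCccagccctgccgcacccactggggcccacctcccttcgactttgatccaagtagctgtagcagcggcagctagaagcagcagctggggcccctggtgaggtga
Mst1r, inner start: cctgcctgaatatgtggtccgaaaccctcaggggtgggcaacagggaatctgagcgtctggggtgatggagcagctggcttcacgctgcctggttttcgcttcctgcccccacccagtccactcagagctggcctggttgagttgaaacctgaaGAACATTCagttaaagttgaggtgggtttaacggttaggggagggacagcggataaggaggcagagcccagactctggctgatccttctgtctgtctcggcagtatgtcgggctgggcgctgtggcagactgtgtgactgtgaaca

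The windows of Axl and the outer start of Mst1r each held 2 GC boxes, a motif present in 35.9% of the 32544 promoters of the table. Pdgfra held none of the motifs searched. The GAANNTTC match at the inner start of Mst1r is a motif that 7.89% of all promoters hold, and TGANTCA, the NF-kB motif and TATAAA were in 7.79%, 1.61% and 13.6%. A match is a description of these letters and not a measured binding site. Counts per gene do not separate the transcripts of the outer and inner starts of Mst1r.

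Stavudine was also compared with no stavudine among the recurrent tumors. Igf1r was lower with stavudine, at 65.6 and 25.4 CPM against 90.2, 140 and 83.9 CPM without overlap (log2 fold change -1.20, SE 0.41, unadjusted p = 0.0164, adjusted p = 0.506). Fgfr1 was at 515 and 1520 CPM against 300.0, 565 and 454 CPM (1.22, SE 0.44, unadjusted p = 0.0205, adjusted p = 0.533), and without replicate 2 of the stavudine group its log2 fold change was 0.23 (unadjusted p = 0.595) and that of Igf1r -0.68 (unadjusted p = 0.122). Without replicate 1 that of Igf1r was -2.05 and that of Fgfr1 1.79. These 2 of 10 receptors passed the unadjusted p, where 7.84% of all genes did. Igf1r and Fgfr2 were the 2 receptors whose groups did not overlap, where 21.5% of all genes did not. For Fgfr2 the groups all but touched, at 2.229 and 3.567 CPM with stavudine against 16.02, 3.573 and 5.289 CPM without. The samples at 3.567 and 3.573 CPM had 175 and 160 counts, so this split rested on the scaling. By edgeR 0% of all genes were called, and DESeq2 called 266, none a receptor. Errfi1 (-1.29), Lrig1 (0.70) and Gas6 (1.59) were the other pathway genes that passed the unadjusted p.

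The difference between the recurrence effects of the arms was tested as an interaction. For Igf1r it was -1.62 on the log2 scale (SE 0.54, unadjusted p = 0.0142, adjusted p = 0.537), the recurrence effect being 0.68 without stavudine and -0.94 under it. Its value stayed between -2.49 and -1.12 when any single tumor was left out. Epha2 came next with -2.08 (SE 1.33, unadjusted p = 0.148), and -3.79 (unadjusted p = 0.00455) without primary untreated replicate 1. Igf1r was the 1 receptor of 10 with an unadjusted p under 0.05, where 7.84% of all genes had one, and 0% were called. For Axl the interaction was 0.015 with an interval of -1.14 to 1.17.

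Epha2, on chromosome 4 (141301221 to 141329384), was lowest in a pair of primary untreated tumors, and in these the genes around it were low as well. This was examined after the values were seen. Epha2 was at 22.2 CPM in primary untreated replicate 2 and 120 CPM in replicate 3, and at 136.7 to 572 CPM in the other 9 tumors. In replicate 2 its level was 0.0507 of the median of the other 10 tumors. The 10 nearest expressed genes, 5 on each side, had a median ratio of 0.459 (0.163 to 0.651), and 9 of them were below every other tumor, where 13.5% of all 12080 genes were in that tumor. Arhgef19, the next gene, was at 27.0 CPM where the other tumors had 35.4 to 79.0 CPM. Low neighbors were not particular to this pair of tumors. The median ratio of the 10 genes was 0.714 in primary untreated replicate 3, 0.839 in recurrent 17-DMAG replicate 1 and 0.834 in recurrent 17-DMAG plus stavudine replicate 1. In recurrent 17-DMAG plus stavudine replicate 2, where Epha2 was at 136.7 CPM, it was 0.994.

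The whole chromosome was low in primary untreated replicate 2. Over the 744 genes of chromosome 4 whose mean log2 CPM reached 1 the median ratio was 0.564, and in each of the 8 windows of 20 Mb along it the median lay between 0.502 and 0.582, with 91.7% to 97.4% of genes below 1. The medians of the other 19 chromosomes in the same tumor were 0.988 to 1.06. Among all 220 pairs of a chromosome and a tumor this was the lowest, and the other 219 lay between 0.805 and 1.19. In primary untreated replicate 3 the chromosome 4 median was 0.828. Epha2 itself was lower than its chromosome by far in replicate 2, and without that tumor its log2 fold change in recurrence without stavudine was 0.23 in place of 0.76.

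**Figure D4:**
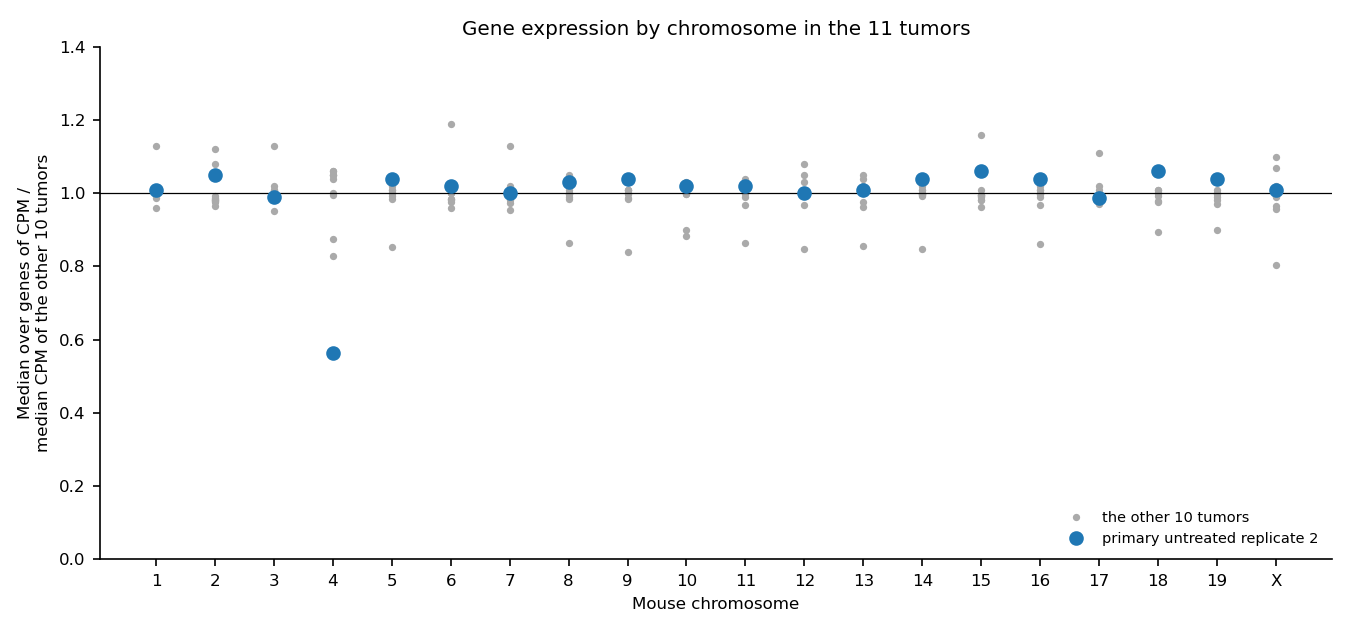
Each point is the median over the genes of a chromosome (horizontal axis) of their CPM in a tumor divided by the median CPM of the other 10 tumors (vertical axis, linear and from 0). Primary untreated replicate 2 stands at 0.564 on chromosome 4 and between 0.988 and 1.06 on the others, and the gray points are the other tumors.

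The chromosomes of the other receptors varied less. The median ratio ran from 0.853 to 1.04 on chromosome 5 (Pdgfra), 0.960 to 1.19 on chromosome 6 (Met), 0.954 to 1.13 on chromosome 7 (Axl, Igf1r and Fgfr2), 0.863 to 1.05 on chromosome 8 (Insr and Fgfr1), 0.840 to 1.04 on chromosome 9 (Mst1r) and 0.893 to 1.06 on chromosome 18 (Pdgfrb). One end of each of these ranges was recurrent 17-DMAG replicate 1. That tumor was shifted on every chromosome. Its medians were 1.11 to 1.19 on chromosomes 1, 2, 3, 6, 7, 15 and 17 and 0.805 to 0.899 on all others. Of the receptors highest in this tumor, Met, Axl and Fgfr2 lie on the raised chromosomes and Pdgfra and Pdgfrb on the lowered ones. What part this shift has in the receptor values was not tested.

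Around Fgfr1 (chromosome 8, 25518759 to 25575718) the high value of recurrent 17-DMAG plus stavudine replicate 2 stood out more than those of its neighbors, whose median ratio was 1.15 (0.605 to 3.60). This too was examined after the values were seen. In this tumor 4 of the 10 neighbors were above every other tumor, where 13.5% of 12080 genes were. Fgfr1 was at 3.68 times the median of the other 10 tumors there, Gm16159 at 3.60 times and Letm2 at 2.81 times, and Sfrp1, the farthest of the 10, at 3.03 times. Lsm1, the last of the 4, was at 1.28 times (11.6 CPM, where the highest other tumor had 10.4). Tacc1, next to Fgfr1 on the other side, was at 0.982, Ddhd2 at 0.780 and Plekha2, below every other tumor, at 0.605. Gm16159 overlaps Fgfr1 on the opposite strand and had 2.35% to 4.17% of the counts of Fgfr1 in the tumors. The libraries were stranded, but the strand setting of the counting is not given in the sources used here, so reads of Fgfr1 and Gm16159 cannot be told apart.

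Axl followed macrophage and fibroblast markers from tumor to tumor. For each receptor, log2 CPM was related to the fibroblast, macrophage and luminal scores over the 11 tumors, 30 relations in all, with p-values from 100000 permutations. Axl and the macrophage score had a Pearson r of 0.963 (permutation p = 0.00011, adjusted p = 0.0033) and a Spearman rho of 0.736 (permutation p = 0.0129, adjusted p = 0.0966), and r was 0.792 without the 2 tumors farthest from the median score. Axl and the fibroblast score had r = 0.858 (permutation p = 0.0003, adjusted p = 0.0045) and rho = 0.809 (permutation p = 0.00364, adjusted p = 0.0966), and r was 0.787 without the 2 farthest tumors.

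Recurrent 17-DMAG replicate 1 lies at the far end of both relations. Without it, r was 0.893 (adjusted permutation p = 0.0303) with the macrophage score and 0.717 (adjusted permutation p = 0.239) with the fibroblast score, so the second no longer passed. With group means subtracted they were 0.963 and 0.825. Axl and the luminal score had r = 0.511 over the 11 tumors, 0.711 with group means subtracted and -0.276 without recurrent 17-DMAG replicate 1. Pericyte, basal and endothelium scores were not related to the receptors, so the relations of Axl are not shown to be particular to macrophage and fibroblast markers. Over the 11 tumors, before any such change, the macrophage and fibroblast relations of Axl were the only 2 of 30 with an adjusted permutation p under 0.05 for r. None passed for rho. What part marker RNA has in the recurrence values of Axl was not tested.

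**Figure D5:**
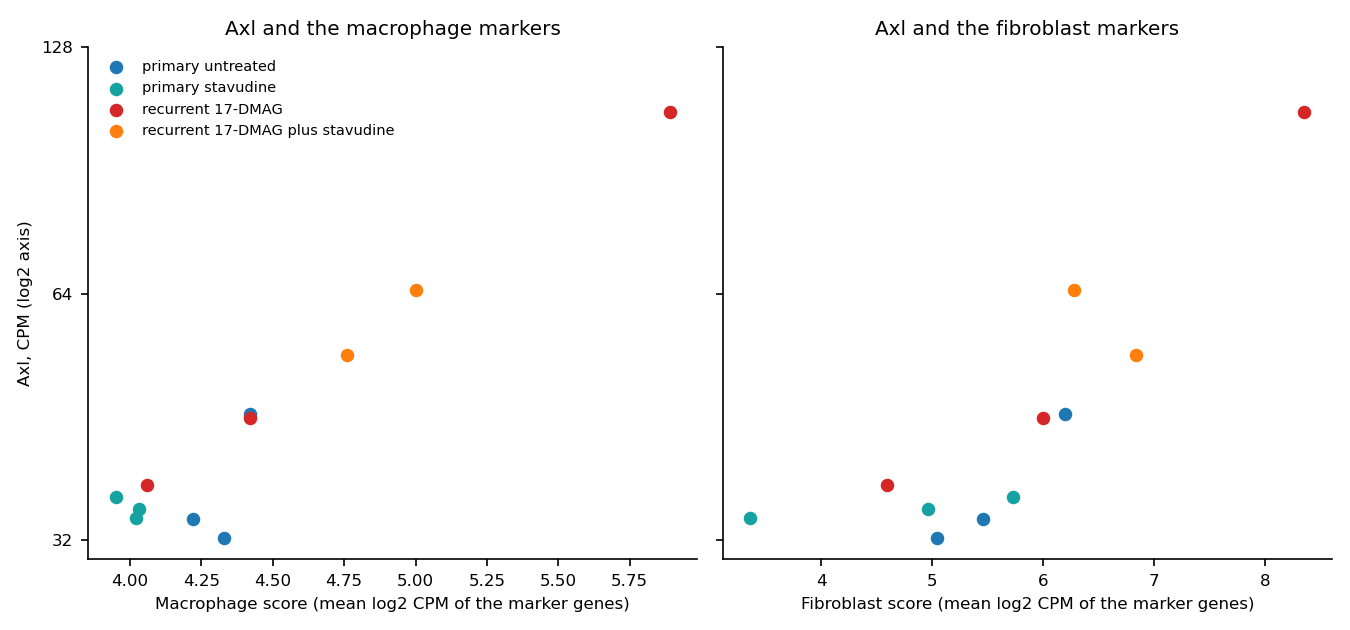
Axl CPM (vertical axis, log2 scale) is plotted against the macrophage score and the fibroblast score (horizontal axes, mean log2 CPM of the marker genes) for the 11 tumors, colored by group. Both recurrent 17-DMAG plus stavudine tumors (64.6 and 53.9 CPM) and recurrent 17-DMAG replicate 1 (106.6 CPM) lie at the upper right in both panels.

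The remaining relations did not pass. Met and the luminal score had r = 0.819 (adjusted permutation p = 0.0602), which was 0.0816 without the 2 farthest tumors. Pdgfra and the fibroblast score had r = 0.781 (adjusted permutation p = 0.0664), and 0.317 without the 2 farthest. Pdgfrb and the fibroblast score had r = 0.635 (adjusted permutation p = 0.119), and 0.824 without the 2 farthest. Mst1r and the macrophage score had r = 0.696 (adjusted permutation p = 0.0978) and rho = 0.755. Epha2 and Fgfr1, the most abundant pair, had r between -0.22 and 0.076 and between -0.55 and 0.020 with the 3 scores.

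As a description, the 3 genes with the pattern most like each receptor over the 11 tumors were found by Pearson's r of log2 CPM among 12691 other genes (12692 for Mst1r). All points share the normalization of their library, and no p is given. For Axl they were Syk (0.973), Ncf4 (0.972) and Slc7a8 (0.972), the first a kinase and the second an oxidase subunit of blood cells. For Pdgfrb they were Col5a3 (0.979), a collagen gene, Ltbr (0.971) and Hdgfrp2 (0.963), and for Pdgfra Sned1 (0.932), F13a1 (0.925) and Klf4 (0.923). For Epha2 they were Slc44a1 (0.976), D030025P21Rik (0.974) and S100pbp (0.974), of which Slc44a1 and S100pbp are also on chromosome 4.

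For Fgfr1 they were Gm16159 (0.957), its opposite-strand neighbor, Osgin2 (0.941) and Atic (0.938). For Met they were Pde7a (0.973), Agap1 (0.971) and Srgap2 (0.960), and for Mst1r Chadl (0.959), Zswim6 (0.942) and Homer1 (0.919). For Igf1r they were Creb5 (0.947), Fbxo5 (0.942) and Tjp1 (0.938), for Insr Ebag9 (0.942), Pja1 (0.924) and Gsta4 (0.922), and for Fgfr2 Mrpl51 (0.930), Cdan1 (0.924) and Rtca (0.924). Among the receptors themselves, Axl and Pdgfra were most alike (r = 0.801) and Met and Fgfr1 most opposed (r = -0.698).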

How the data were processed

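Total RNA depleted of ribosomal RNA was sequenced from 11 tumors and 2 glands. The authors aligned the reads to mouse genome GRCm38 (mm10) by means of STAR, and featureCounts assigned them to genes. The submitters' processing notes also name Subread 1.6.2 and bcl2fastq 2.20. The deposited values were raw read counts for 24421 genes, one column per library. The strand setting of the counting is not given in the sources used here. Library totals of 39921388 to 56887708 counts limit the precision of low genes, and floors of 3 counts cover counting error only.

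Genes were filtered with filterByExpr, scaled by TMM and tested with the quasi-likelihood test of edgeR 4.0.16 (R 4.3.3), robust, two-sided, with Benjamini-Hochberg adjustment over all genes and calls at an adjusted p under 0.05. The gland comparison was fitted on 13 libraries (17135 genes) and the other 6 on the 11 tumors (16870 genes). The study used DESeq2, which was an alternative here (version 1.42.0). SE is the log2 fold change divided by the square root of F, and intervals are 95%. CPM used TMM factors of the 13 libraries, and overlap between groups was read from CPM. Log2 CPM had a prior count of 2. RPKM used exon lengths of GENCODE on GRCm38, not the authors' annotation, so levels between genes are approximate. Positions and promoters are from RefSeq, GRCm38.p6. Scripts were tested on simulated data. Python 3 packages, SciPy among them, gave the permutations.

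All 10 receptors were named in every comparison where the rule asked for it: all of them in the gland and the single-arm recurrence comparisons, and elsewhere those with an unadjusted p under 0.05 or the 2 smallest p. Pathway genes were named at an unadjusted p under 0.05, and similar genes were the 3 with the highest r. The receptors, lists and tests were chosen with earlier results of these data known. The values along chromosomes were chosen after seeing the members' values. The labels gave no batch. Replicate numbers were checked as pairs: over 15 same-numbered pairs the correlation of deviations ran from -0.295 to 0.222. They were not used as pairs in the main tests, though with 2 or 3 samples per group this check cannot exclude a pairing. Alternatives were DESeq2, RLE scaling, no filter, a replicate block, no milk, muscle or adipocyte genes, the compared groups alone, and each library left out.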

Additional observations from a re-analysis of the deposited data

How the results depend on the processing

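Of the values that answer a comparison, 81 stayed within the limits set for them under the alternatives and 13 moved. Most of the 81 are counts of 0 receptors called that stayed 0, in comparisons where edgeR called 0% of all genes. They therefore say little about how firm the results are. Against glands, only RLE scaling and leaving out milk, muscle and adipocyte genes kept the count of 1. Of the values of single receptors, 465 kept direction and call, 31 turned sign, 8 lost a call and 4 gained one. In the gland comparison the number of receptors called, 1 in the report, was 2 with DESeq2, 0 without a low-count filter, 0 with a replicate block and 0 with the compared groups only, and 0 to 2 when 1 library was left out. It was 0 without any 1 of the 3 primary untreated tumors or mammary gland replicate 2, and 2 without mammary gland replicate 1 (Fgfr1 and Pdgfra) or recurrent 17-DMAG replicate 1 (Axl and Pdgfra). Genes called in that comparison numbered 2352 with DESeq2, 372 with RLE scaling, 255 without the filter, 4 with the replicate block and 0 with the compared groups only, and ran from 0 (without primary untreated replicate 2 or 3) to 3381 (without mammary gland replicate 1) with 1 library left out. For the averaged recurrence DESeq2 called 1 receptor where edgeR called 0. Of the 30 relations with marker scores, 2 passed, 1 without recurrent 17-DMAG replicate 1 and 10 with group means subtracted, whose permutation p-values are too small because the subtracted means are not counted. Log2 fold changes near 0 turned sign. Against glands the replicate block gave Met 0.097, Igf1r 0.13 and Insr 0.0079, and leaving out milk, muscle and adipocyte genes gave Igf1r 0.013 and Insr 0.0145. With 1 library left out Met ranged from -0.65 to 0.86, Igf1r from -0.56 to 1.15, Insr from -0.23 to 0.40, Pdgfrb from -0.39 to 0.31 and Epha2 from -0.63 to 2.34. In recurrence without stavudine Met ranged from -0.14 to 0.51, Fgfr2 from -0.53 to 0.75 and Pdgfrb from -0.42 to 0.62. In recurrence under stavudine Met was -0.011 without the filter, -0.13 with the replicate block, -0.015 without milk, muscle and adipocyte genes and -0.0055 with the compared groups only, and ranged from -0.52 to 0.37 with 1 library left out. Insr there was -0.0043 without the filter and -0.0090 without those genes, and ranged from -0.075 to 0.11, and Fgfr2 from -0.64 to 0.38. Where a left-out library left 1 sample in a group, that sample was assumed to vary like the other groups. Same-numbered pairs had a median correlation of -0.0512, but with 2 or 3 samples per group this cannot show that no pairing exists. Whether losses under the block are weaker effects was not tested. The causes were not tested. With 2 or 3 libraries per group the precision was low for Epha2, Pdgfrb and Fgfr2: log2 fold changes of 1.08 and -1.33 for Epha2 and 1.01 for Pdgfrb had unadjusted p-values over 0.05.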
